A study of Oryza sativa with 6 samples.

Results

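Chlorophyll a-b binding proteins are the antenna proteins of the light reactions. They sit in the thylakoid membrane of the chloroplast, hold most of the chlorophyll of a leaf and pass the energy of absorbed light to the photosystems. In photosystem II the outer antenna is built of trimers (LHCII), whose main proteins are encoded by several closely similar Lhcb1 genes, and the trimers are joined to the core by monomeric proteins such as CP29. The nuclear genes of this family are known to be induced by light through phytochromes, to cycle over the day under the circadian clock, and to be repressed in Arabidopsis seedlings in the dark by phytochrome-interacting factors (PIFs).

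The genes described here are those of the deposited table whose Swiss-Prot description contains the words chlorophyll a-b binding, which held for 3 of 2995 listed genes. They are CAB1R (LOC4346803, chlorophyll a-b binding protein 1) and CAB2R (LOC4324599, chlorophyll a-b binding protein 2), both annotated by KEGG as the LHCII protein LHCB1, and CP29.1 (LOC4343583, named after the Arabidopsis protein and annotated by KEGG as LHCB4). In the RefSeq table of rice all 3 were found, each on a chromosome of its own, and the synonyms given there are CAB1R, CAB2R and RCABP69. KEGG places 4 listed genes in the pathway of antenna proteins, the 3 above and a photosystem I antenna gene.

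The study asked how *OsPIL13*, a PIF-like bHLH factor of rice, acts on water use under fluctuating light combined with drought (FL-DS). Leaf RNA of the japonica cultivar WYG7 (labelled wt) and of the line labelled PIF4v3m was sequenced, with 3 libraries per line. All 6 libraries came from pot-grown plants under FL-DS, and no library of unstressed leaves was analysed here. PIF4v3m is taken to be the line that the paper calls PIL13v3m, in which 1 nucleotide at the v3 SNP of the *OsPIL13* promoter was deleted by CRISPR/Cas9 in WYG7, a match of names that the labels do not state. Only 1 such line is described, and the paper calls it a knocking-down line, so its promoter deletion and any other difference of that line from WYG7 cannot be told apart. *OsPIL13* itself was not followed here, because its locus number could be paired with no gene ID. The labels give plants of 3 weeks, whereas the growth chamber schedule in the paper gives older plants. The paper calls the replicates of this comparison independent, and neither it nor the labels say whether they were separate plants, so the p-values measure the spread between these libraries.

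The table lists FPKM (fragments counted on a gene, divided by transcript length and by the mapped reads of the library) only for genes that the authors had called as different between the lines. Of the 2995 genes, 99.9% passed the present test in either direction, 45.8% as higher in PIF4v3m and 54.1% as lower, and for 99.4% the lines did not overlap. A call therefore adds little for a single listed gene, and what the values show is direction, size and level. Antenna genes that the authors did not call were not analysed here, and it is unknown how many of the family they are. As a check of tissue, the small subunit gene RBCS-A (LOC4352016) and the Rubisco activase gene RCA (LOC4351224), both strongly expressed in green leaves, were at 841 FPKM or more in every library.

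All 3 chlorophyll a-b binding protein genes were lower in PIF4v3m than in WYG7 (3 of 3, against 54.1% of all listed genes). Their median log2 fold change was -2.77, beside -0.56 for all listed genes. The offset of 1 FPKM shrinks the latter, which was -1.08 with a pseudocount of 0.1, while the median of the members was then -2.78. The fall was 6.80-fold for CAB1R, 6.89-fold for CAB2R and 3.32-fold for CP29.1, as ratios of mean FPKM. These sizes depended on the scaling between libraries, and with median ratio scaling over the listed genes the log2 fold changes of CAB1R and CAB2R were -2.05 and -2.14, against -2.77 and -2.86 in the FPKM as deposited. In leaf RNA a smaller share of mesophyll cells and less RNA per cell cannot be told apart.

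CAB1R, a gene of the LHCII trimer, stood at 5838, 5349 and 4954 FPKM in WYG7 replicates 1, 2 and 3. In PIF4v3m replicates 1, 2 and 3 it stood at 820, 649 and 904 FPKM. The highest PIF4v3m library was far below the lowest WYG7 library. Mean levels were 5380 ± 443 FPKM in WYG7 and 791 ± 130 FPKM in PIF4v3m (SD, n = 3). On the log2(FPKM + 1) scale the fold change was -2.77 (standard error 0.16, limma adjusted p = 2.27e-06).

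CAB2R, the other gene of the LHCII trimer, stood at 2523, 2825 and 3085 FPKM in WYG7 and at 412, 243 and 568 FPKM in PIF4v3m. The lines did not overlap, and the PIF4v3m libraries were more scattered than for the other members. Means were 2811 ± 281 and 408 ± 163 FPKM (SD, n = 3), which gave a log2 fold change of -2.86 (standard error 0.28; adjusted p from limma = 2.48e-05). The coefficient of variation of CAB2R was 10.0% in WYG7 and 39.9% in PIF4v3m, beside 8.23% and 16.5% for CAB1R. CAB1R and CAB2R carry the same KEGG ortholog, and how the authors counted reads that match similar copies is not given in the sources used here, so the split of reads between these genes, and with other Lhcb1 copies, is uncertain.

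CP29.1, the monomeric antenna protein that links LHCII to the photosystem II core, stood at 3479, 3248 and 3500 FPKM in WYG7 and at 1054, 846 and 1180 FPKM in PIF4v3m. It was the steadiest of the members in WYG7, with a coefficient of variation of 4.10%, and its fall was the smallest. Means were 3409 ± 140 and 1027 ± 169 FPKM (SD, n = 3), and the log2 fold change was -1.74 (standard error 0.15; adjusted p from limma = 1.47e-05). Its size depended on the scaling between libraries: it was -0.86 after quantile normalization and -1.02 after median ratio scaling, each computed over the listed genes only. For each of the 3 genes the exact two-sided permutation p over libraries was 0.1, the smallest that 3 against 3 libraries allow.

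**Figure D1:**
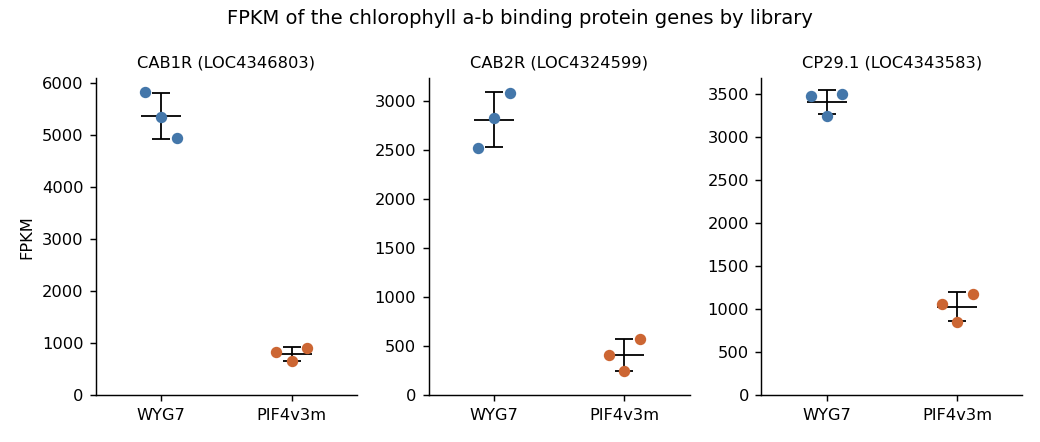
FPKM (vertical axes, linear and starting at 0) of CAB1R, CAB2R and CP29.1 in the 3 WYG7 libraries (blue) and the 3 PIF4v3m libraries (orange), drawn from replicate 1 on the left to replicate 3 on the right. Horizontal bars are means and error bars are SD, and in each panel every PIF4v3m library lies below every WYG7 library.

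PIF4v3m replicate 2 was the lowest and replicate 3 the highest of the edited line for all 3 genes. On the log2 scale replicate 2 lay 0.27 (CAB1R), 0.66 (CAB2R) and 0.27 (CP29.1) below the mean of its line, while the median deviation over all listed genes in this library was -0.0012. Some other abundant genes were low in it too, but the share of the members in the FPKM summed over listed genes also fell. This share was 2.59% in replicate 2, against 3.25% and 3.67% in replicates 1 and 3. The FPKM summed over listed genes, the members included, was also lowest in replicate 2 (67146, against 70312.5 and 72353 in replicates 1 and 3). RCA (6869 FPKM, against 8167 and 7983) and RBCS-A (2372 FPKM, against 3056 and 3121) were low in it too. The lectin gene R40G2 (LOC4344319) was instead highest there (682 FPKM, against 379 and 438). In WYG7 the members did not move together: CAB1R was highest in replicate 1 and CAB2R in replicate 3. WYG7 replicate 1 had the lowest library weight of the 6 (0.459, against 0.958 to 1.53). Without it the median log2 fold change of the members was -2.71.

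The antenna genes were among the most abundant transcripts of the table, FPKM being a level per transcript length. By mean FPKM in WYG7, CAB1R ranked 2, CP29.1 ranked 3 and CAB2R ranked 5 of the 2995 listed genes. In PIF4v3m they ranked 9, 7 and 20. CAB1R lost more FPKM between the lines than any other listed gene, with a mean difference of 4589 FPKM, and CAB2R (2403 FPKM) and CP29.1 (2382 FPKM) ranked 3 and 4 by this difference, after the Calvin cycle regulator CP12-1 (LOC4325791). Of 10 listed genes with a WYG7 mean of at least 1000 FPKM, 8 were lower in PIF4v3m and 2 were higher (against 54.1% and 45.8% of all listed genes). The 2 higher ones were RCA and RBCS-A, and the 8 lower ones include the 3 members. A choice by the level in WYG7 favours genes that are lower in PIF4v3m, so this count says little. By log2 fold change the members were less extreme, as CAB2R held rank 57, CAB1R rank 66 and CP29.1 rank 274 from the lowest. These ranks are on the log2(FPKM + 1) scale, which shrinks the changes of low genes, so they may overstate how extreme the members were.

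**Figure D2:**
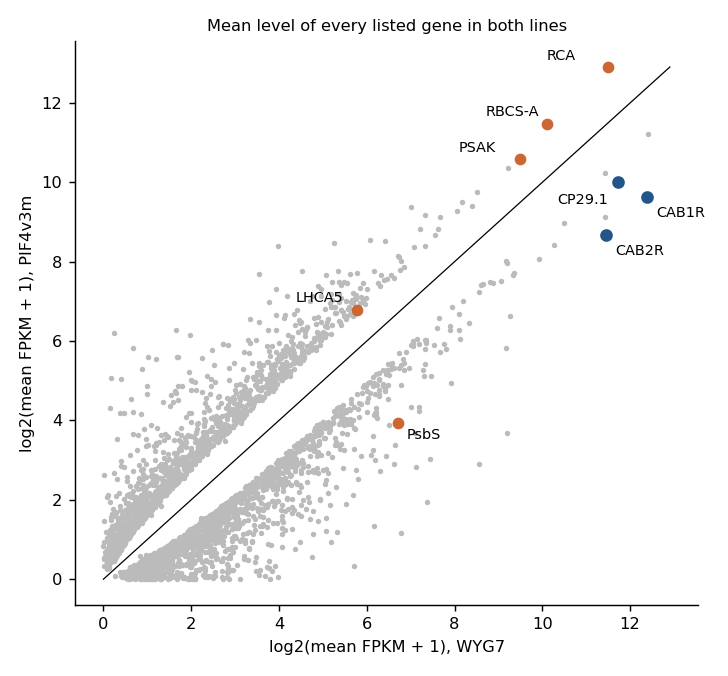
Mean level of each of the 2995 listed genes as log2(mean FPKM + 1) in WYG7 (horizontal axis) and PIF4v3m (vertical axis), with a line of equal levels. The 3 members (dark blue) lie at the right end and below the line, and RCA, RBCS-A, PSAK and LHCA5 (orange) lie above it, while PsbS (orange) lies below it. The empty band along the line reflects that only called genes are listed.

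Summed over the 3 members, the level was 11840, 11422 and 11539 FPKM in WYG7 replicates 1, 2 and 3. The sums in PIF4v3m were 2286, 1738 and 2653 FPKM. The WYG7 sums lay close together although single members varied, and the means, 11600.1 ± 215 and 2225 ± 460 FPKM (SD, n = 3), differed 5.21-fold. The members made up 15.0% ± 0.730 of the FPKM summed over listed genes in WYG7 and 3.17% ± 0.543 in PIF4v3m, a denominator that holds called genes only.

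**Figure D3:**
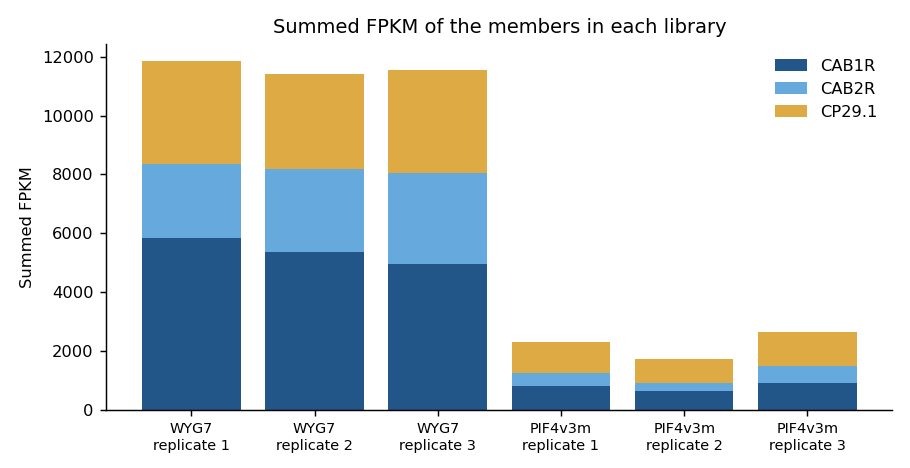
Summed FPKM of CAB1R (dark blue), CAB2R (light blue) and CP29.1 (yellow) in each of the 6 libraries, as stacked bars from 0. The WYG7 bars reach 11422 to 11840 FPKM and the PIF4v3m bars 1738 to 2653 FPKM, with a larger yellow part of the bar in PIF4v3m.

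The make-up of this sum also differed between the lines. A ratio of members within a library stays the same when that library is scaled by a single factor, although not under quantile normalization, and these ratios were chosen after the values had been seen. The CAB1R level was 1.68, 1.65 and 1.41 times that of CP29.1 in WYG7 replicates 1, 2 and 3, and 0.778, 0.767 and 0.766 times in PIF4v3m. CAB1R thus stood above CP29.1 in every WYG7 library and below it in every PIF4v3m library. The mean ratio was 1.58 ± 0.143 and 0.770 ± 0.00697 (SD, n = 3; exact two-sided permutation p = 0.1, the smallest possible). For CAB2R against CP29.1 the ratios were 0.725, 0.870 and 0.881 in WYG7 and 0.391, 0.288 and 0.482 in PIF4v3m, again without overlap (exact p = 0.1). After quantile normalization the log2 ratios to CP29.1 differed between the lines by -1.55 for CAB1R and -1.27 for CAB2R, against -1.03 and -1.12 in the FPKM as deposited. The pair of LHCII genes did not separate the lines, as the ratio of CAB2R to CAB1R was 0.528 ± 0.0953 in WYG7 and 0.502 ± 0.127 in PIF4v3m (SD, n = 3; exact permutation p = 0.8) and the lines overlapped. CP29.1 accordingly took 29.4% ± 0.948 of the summed level in WYG7 and 46.4% ± 2.12 in PIF4v3m.

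**Figure D4:**
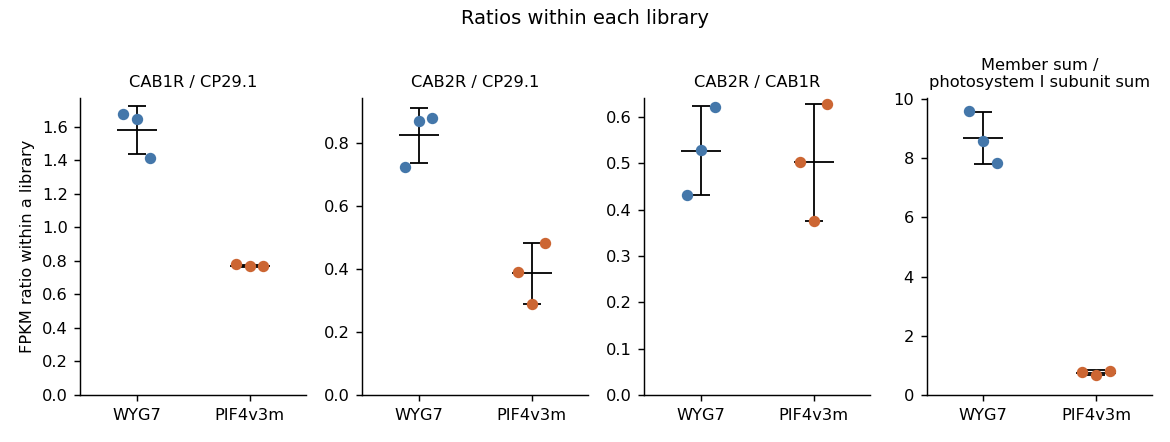
FPKM ratios within each library (vertical axes from 0) of CAB1R to CP29.1, CAB2R to CP29.1, CAB2R to CAB1R, and of the member sum to the sum of 3 photosystem I subunits, for WYG7 (blue) and PIF4v3m (orange). Bars are mean and SD of 3 libraries, and the lines overlap only for CAB2R to CAB1R.

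Other listed genes of the same protein family did not all follow these members. Pfam assigns its chlorophyll A-B binding domain to 5 listed genes, of which 4 were lower and 1 was higher (against 54.1% and 45.8% of all listed genes). Among the 4 lower genes are the 3 members, so the family adds 1 gene in each direction. The added gene that fell is annotated as PSBS2 (LOC4337500, photosystem II 22 kDa protein 2), called PsbS here. PsbS as a protein is needed for the rapid dissipation of excess light as heat, and the part of this copy in that was not tested. The PSBS2 gene had 141, 89.1 and 79.2 FPKM in WYG7 and 14.7, 15.1 and 13.3 FPKM in PIF4v3m. Its log2 fold change, -2.71 (standard error 0.20; adjusted p from limma = 6.62e-06), was close to that of CAB1R. The gene that rose is LHCA5 (LOC4330828, photosystem I chlorophyll a/b-binding protein 5), in Arabidopsis a minor antenna protein of photosystem I. It had 50.1, 56.0 and 54.4 FPKM in WYG7 and 107, 107 and 115 FPKM in PIF4v3m, and its log2 fold change was 1.02 (standard error 0.09; adjusted p from limma = 1.19e-05). LHCA5 is written with a slash in its description and so falls outside the rule that chose the members.

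The light-harvesting-like proteins are small relatives of the antenna that bind pigment without serving mainly as light collectors. All 3 listed ones were higher in PIF4v3m (3 of 3, against 45.8% of all listed genes), with a median log2 fold change of 1.09. OHP1 (LOC4352215), which in Arabidopsis takes part in the assembly of photosystem II, had 12.3 to 13.7 FPKM in WYG7 and 27.8 to 33.9 FPKM in PIF4v3m, a log2 fold change of 1.16. Light-harvesting complex-like protein 3 (LOC4328151), which in Arabidopsis binds enzymes of chlorophyll synthesis, had a log2 fold change of 1.09. For Stress enhanced protein 1 (LOC4348548) the log2 fold change was 1.07.

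Of 5 listed photosystem I and II subunits, 3 were higher and 2 lower, beside 45.8% and 54.1% of all listed genes. The 3 higher ones belong to photosystem I and the 2 lower ones to photosystem II, which are too few to speak for either photosystem. The photosystem I subunits psaK (LOC4342404), V (LOC4347395) and N (LOC4351694) rose by log2 fold changes of 1.08, 1.31 and 1.02, and the photosystem II polypeptide PsbR (LOC4342395) and PsbS fell, PsbR from 109 ± 13.6 to 1.24 ± 0.316 FPKM (SD, n = 3). The member sum was 9.59, 8.59 and 7.85 times the sum of the 3 photosystem I subunits in WYG7 replicates 1, 2 and 3, and 0.779, 0.661 and 0.817 times in PIF4v3m. The mean ratio differed 11.5-fold between the lines, without overlap (exact two-sided permutation p = 0.1). This ratio too was formed after the values were known, and PIF4v3m replicate 2 was the lowest in it as well as in the members.

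**Figure D5:**
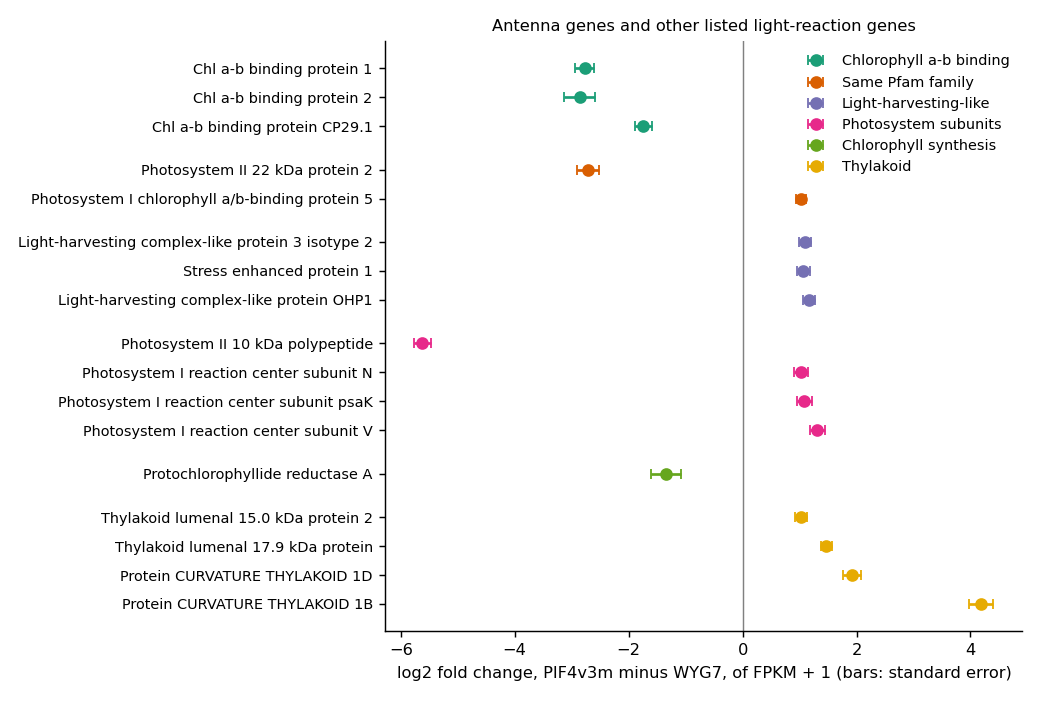
Log2 fold changes of FPKM + 1 (PIF4v3m minus WYG7, horizontal axis) with standard errors for the 3 members, other genes of their Pfam family, light-harvesting-like proteins, photosystem subunits, a chlorophyll synthesis gene and thylakoid proteins. The members lie between -2.86 and -1.74, and the photosystem I genes and light-harvesting-like genes lie between 1.02 and 1.31.

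Antenna proteins are stable only when they bind chlorophyll. Of the genes of chlorophyll synthesis 1 was listed, protochlorophyllide reductase A (LOC4337415), the light-driven enzyme that makes chlorophyllide. It was lower in PIF4v3m, with 33.7, 66.3 and 65.5 FPKM in WYG7 and 20.6, 15.8 and 25.1 FPKM in PIF4v3m, and its log2 fold change was -1.34 (standard error 0.27; adjusted p from limma = 0.0013). Among the listed genes 0 belonged to the list of chlorophyll breakdown, and since unlisted genes have no values here this says nothing of their level or of a difference. Of the list for antenna import, insertion and phosphorylation, 4 genes were listed and all 4 were higher (against 45.8% of all listed genes). They are lumenal and membrane-shaping proteins rather than import factors, among them CURVATURE THYLAKOID 1B (LOC4349239, log2 fold change 4.19), which bends the margins of grana. The list of regulators also sought the names GLK, HY5 and phytochrome-interacting, but the only 2 listed genes it matched were GATA factors. GATA transcription factor 23 (LOC4337852) rose from 1.48 ± 0.456 to 11.4 ± 0.693 FPKM and GATA transcription factor 4 (LOC4352838) fell from 10.5 ± 0.758 to 4.40 ± 0.349 FPKM (SD, n = 3). Whether either acts on the antenna genes was not tested.

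Morning-phased MYB genes of the clock also differed between the lines, in the direction opposite to that of the antenna genes. PIF4v3m replicate 2 had the lowest sum of each set, by little for the clock genes (423, 414 and 425 FPKM in replicates 1, 2 and 3). A link between the sets was not tested. All 5 listed REVEILLE and LHY genes were higher in PIF4v3m (against 45.8% of all listed genes), and their summed level was 60.9 to 68.3 FPKM in WYG7 and 414 to 425 FPKM in PIF4v3m, with none of the genes at 0. Protein REVEILLE 2 (LOC4336779) had the smallest p of the list, with 0.133 to 0.214 FPKM in WYG7 and 69.3 to 77.9 FPKM in PIF4v3m. LHY (LOC4344703), chosen after its values were seen, had 19.1, 24.5 and 22.8 FPKM in WYG7 and 218, 216 and 218 FPKM in PIF4v3m. The time of day at which leaves were taken is not given in the sources used here, and a difference in it cannot be told apart from a difference between the lines. Genes matched by name to lists of cell types, the mesophyll included, differed as well, and their part in the antenna result was not tested. Of the leaf mesophyll list 3 of 5 listed genes were higher (against 45.8% of all listed genes), with sums of 3956 to 4263 FPKM in WYG7 and 9296 to 11291 FPKM in PIF4v3m. RCA and RBCS-A made up most of these sums and, with the Rubisco activase gene RCA2 (LOC4337267), were the 3 higher ones. Both listed carbonic anhydrases, alpha types matched by name, were lower, and whether they mark the mesophyll was not tested. In this list RCA rose from 2889 ± 204 to 7673 ± 702 FPKM, while alpha carbonic anhydrase 1 (LOC4335782) fell from 42.3 ± 3.14 to 14.3 ± 0.902 FPKM (SD, n = 3). All 3 listed genes of the list for dividing cells were higher (against 45.8% of all listed genes). Their sums were 1.99 to 2.37 FPKM in WYG7 and 10.8 to 14.5 FPKM in PIF4v3m, mostly histone H3.2 (LOC4325069). KIN-12C and KIN-12E had means of only 0.169 and 0.215 FPKM in WYG7 and 0.370 and 0.498 FPKM in PIF4v3m. The stomatal list matched 1 listed gene by the words of its name, EPIDERMAL PATTERNING FACTOR-like protein 2 (LOC4342336). Whether this gene acts in stomata was not tested. It was lower (1.17 to 1.34 FPKM in WYG7 and 0.306 to 0.629 FPKM in PIF4v3m), a call that was lost with median ratio scaling (adjusted p from limma = 0.0502). Of the vasculature and root lists 0 genes were listed.

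Over the 6 libraries the pattern of CAB1R, the member with the highest mean level, was compared with every listed gene as Pearson's r of log2(FPKM + 1). The closest genes outside the members were the ultraviolet-B receptor UVR8 (LOC4326428, r = 0.9997), the chaperone HSC-2 (LOC4351208, r = 0.9994) and the BTB/POZ protein NPR3 (LOC4333666, r = 0.9993). CP29.1 and CAB2R reached r = 0.996 and 0.984 with CAB1R. As the listed genes were chosen for differing between the same lines, 167 genes outside the members had an r above 0.99, and the values are a description over 6 points that share their libraries.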

How the data were processed

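The authors deposited FPKM per gene and library, with an FDR (an adjusted p-value) and a log2 fold change of their own, neither of which was used as a result. All 2995 deposited genes passed limits of 0.01 on that FDR and of 1 on the size of that log2 fold change. The paper names STAR, Cufflinks and DESeq2, while HISAT2 2.0, Bowtie 0.12.2 and StringTie 1.3.0 stand in the notes of the submitters beside mm8, a mouse build, so the tools behind the FPKM are not settled and no coordinates are given. Read depth could not be recovered from low FPKM, since at most 3 of 134 genes under 0.3 FPKM in WYG7 replicates 1 and 2, and 3 of 190 in those of PIF4v3m, shared a ratio between the replicates (within 0.002, natural log), so the precision of single values is unknown.

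For genes with a mean FPKM above 0.01 (all 2995), limma 3.58.1 (R 4.3.3) was fitted to log2(FPKM + 1) with the line as the only term and a trend of variance on mean, two-sided, with Benjamini-Hochberg adjustment over all listed genes and a threshold of 0.05. The offset understates changes of low genes. The functions were tested on simulated data. Exact permutation tests and figures were made with Python 3.11.15, pandas 2.3.3 and matplotlib 3.10.9. Gene lists were matched to Swiss-Prot descriptions, with abbreviations read as whole words, and all members and, of each list, the called gene with the smallest p in each direction were to be named; further list genes were named after their values were seen. Members and lists were chosen with earlier results of these data known. Alternatives were other pseudocounts, filters, scalings and variance models, the replicate number as a block, a threshold of 0.01 and each library left out. A RefSeq table (assembly ASM3414082v1) matched 2761 gene IDs and served for names and gene order. Deviations from the line means gave no sign that replicate numbers pair the libraries.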

Additional observations from a re-analysis of the deposited data

How the results depend on the processing

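All 3 members stayed lower and past the threshold under every alternative that was run (48 of 48 single-gene values), an outcome close to fixed in advance because the authors had listed only called genes. The median log2 fold change over the members was -2.14 after quantile normalization and -2.05 after median ratio scaling, and ranged from -2.88 to -2.53 without single libraries, with the smallest fall without PIF4v3m replicate 2. These scalings also moved the median over all listed genes from -0.56 to -0.33 and -0.26, while TPM rescaling moved it to -0.95 and pseudocounts of 0.1 and 0.01 to -1.08 and -1.13. The scalings used listed genes only, and the cause was not tested. With the replicate number as a block, 3 members were lower, 0 were higher and the median was -2.77, and no call of a member changed. Correlations of deviations between libraries of 1 number were -0.068, 0.003 and -0.097, so the libraries share only a number. Without single libraries the log2 ratio of CAB1R to CP29.1 differed between the lines by -1.11 to -0.99 and that of CAB2R to CP29.1 by -1.29 to -0.92, while that of CAB2R to CAB1R ranged from -0.27 to 0.11. After quantile normalization these differences, an alternative chosen after seeing the data, were -1.55, -1.27 and 0.28. Of 33 genes of the context lists, which include the 3 members, the direction held in 33. Of these 32 were called under every setting, the exception being LOC4342336 with median ratio scaling. This outcome too was close to fixed in advance, since the authors had called every listed gene. A planned share of photosystem I antenna members was not run, as the rule gave none.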

Other observations

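In the order of genes in the RefSeq table, 2 genes lie between CP29.1 (LOC4343583) and the gene that the deposited table names SAL1 (LOC4343581, described there as an inositol polyphosphate 5-phosphatase), and these neighbours changed in opposite directions. The gene named SAL1 had 0.104 ± 0.00758 FPKM in WYG7 and 18.9 ± 5.97 FPKM in PIF4v3m (SD, n = 3), a log2 fold change of 4.13, beside -1.74 for CP29.1. On its other side, with 4 genes between, the sugar transporter gene MST6 (LOC4343590) fell by 1.06 on the log2 scale. Next to CAB2R (LOC4324599), with 0 genes between, LOC4324600 had 0.549 FPKM in WYG7 and 0.0915 FPKM in PIF4v3m. These neighbours were looked up after the values were known and no test was made.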
